A study of Rattus norvegicus with 12 samples.

Results

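Psap, Gusb, Aga, Ppt2, Nagpa and Cst3 encode soluble enzymes of the lysosome or proteins that work with them. These 6 genes were taken by their Ensembl identifiers from 32754 rat genes in the count tables, and 6 of 6 were among the 7378 genes that passed the filter on low counts. They were chosen with results of these libraries known. Psap, Gusb and Cst3 stand in a list of lysosomal genes that the study selected on fold changes in these same libraries, as induced by FGF18 in wild-type cells and not in the knockout, while Aga, Ppt2 and Nagpa are not in that list. The effects of FGF18 on the 6 genes are therefore given as a description. Where the number of them past a threshold is printed for those effects, nothing is read from it. Comparisons between genotypes use the same libraries and are descriptions as well.

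RCS is a chondrocyte line derived from the Swarm rat chondrosarcoma. Wild-type (WT) RCS and 1 clone lacking the FGF receptors FGFR3 and FGFR4 (FGFR3/4KO), made by CRISPR/Cas9, were cultured in 5% adult bovine serum, either with no further treatment (vehicle) or with FGF18 overnight. The labels give FGF18 at 50 µg/ml, where the study's text gives the same figure in ng/ml for its FGF18 experiments. Each of the 4 groups has 3 libraries, labelled as biological replicates, and nothing states whether these came from separate cultures, so p-values measure the spread between these libraries. Differences between genotypes are differences between WT RCS and 1 clone, and an effect of the receptors and of clonal origin cannot be told apart.

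Lysosomal hydrolases are made in the endoplasmic reticulum, receive a mannose 6-phosphate tag in the Golgi apparatus and are carried by its receptors to the lysosome, where they work at acid pH. Gusb (β-glucuronidase) removes glucuronic acid from glycosaminoglycans such as those of the cartilage matrix, Aga (aspartylglucosaminidase) cuts the bond between asparagine and N-glycans, and Ppt2 is a lysosomal thioesterase. Nagpa, the "uncovering enzyme", is itself a Golgi protein and completes the tag. Psap (prosaposin) is the precursor of the saposins, small cofactors without which sphingolipid hydrolases do not reach their substrates. Cst3 (cystatin C) is a secreted inhibitor of cysteine cathepsins. Many lysosomal genes carry a CLEAR site, an E-box bound by the transcription factors TFEB and TFE3, near their start, which is why the sequence at the start of these genes is shown first.

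RefSeq promoter windows, from 250 bases before to 50 bases after the annotated start in the rat assembly GRCr8, were given for 5 of the 6 genes, all but Psap. Both strands were searched for the E-box CACGTG, for its longer CLEAR-like form CACGTGAC, whose matches also count as CACGTG, and for the variant CATGTG. Nagpa holds CACGTG at -9 and at +7, counted from the annotated start as +1 to the motif's first base, and the match at +7 extends to CACGTGAC. Gusb holds CATGTG at -41. In the windows of Aga, Ppt2 and Cst3 none of these letters were found. For comparison, CACGTG occurs in 6.42%, CACGTGAC in 1.85% and CATGTG in 13.97% of 33469 promoter windows of this length. The 30 bases around the start of Nagpa, which hold both matches, lie at chr10:10886717-10886746 on the plus strand, with the matches in capitals.
Nagpa, around the start: ggaatCACGTGgggcgagccCACGTGACcg
The 250 bases before the start are shown for the 3 genes with a window whose log2 change with FGF18 in WT RCS was largest, a choice made on values already seen, at chr10:10886481-10886730 (plus strand) for Nagpa, chr12:32337057-32337306 (plus strand) for Gusb and chr3:156793938-156794187 (minus strand) for Cst3, with any match in capitals.
Nagpa, before the start: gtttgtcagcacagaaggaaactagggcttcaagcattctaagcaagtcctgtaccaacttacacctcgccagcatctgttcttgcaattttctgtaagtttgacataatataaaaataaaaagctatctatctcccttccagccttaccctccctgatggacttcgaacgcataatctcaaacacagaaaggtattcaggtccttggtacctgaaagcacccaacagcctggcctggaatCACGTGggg
Gusb, before the start: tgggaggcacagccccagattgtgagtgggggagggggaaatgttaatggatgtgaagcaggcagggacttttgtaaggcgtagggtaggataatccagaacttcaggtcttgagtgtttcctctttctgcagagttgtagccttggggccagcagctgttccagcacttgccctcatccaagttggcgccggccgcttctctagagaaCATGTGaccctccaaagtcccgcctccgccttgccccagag
Cst3, before the start: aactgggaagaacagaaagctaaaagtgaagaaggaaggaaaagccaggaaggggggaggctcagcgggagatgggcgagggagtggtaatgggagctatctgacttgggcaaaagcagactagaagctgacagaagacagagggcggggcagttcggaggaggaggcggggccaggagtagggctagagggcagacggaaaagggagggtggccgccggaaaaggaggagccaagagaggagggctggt
The study's own table of predicted CLEAR sites names Psap, Gusb and Cst3, and its 14-base sites are shown because they come from the genes picked as induced. Their coordinates are those of that table, which names neither build nor strand (the reads were aligned to rn6), and capitals mark the E-box frame CANNTG. The sites lie at chr20:29831180-29831193 for Psap, chr12:30200435-30200448 for Gusb and chr3:143223984-143223997 for Cst3. Their distances from the start, as listed there, are -121, -1630 and -452 bases.
Psap, predicted site: ccgcCACCTGgccc
Gusb, predicted site: acgtCACATGattt
Cst3, predicted site: ctatCAAGTGatca
That table also holds sites in rows that name no gene, of which 1 lies near the Gusb site, at chr12:30200782-30200795, and holds CACGTG. Its listed distance, -1283 bases, is counted from the same start as that of the Gusb site. Another lies near the Psap site, at chr20:29831344-29831357, with a distance of 43 bases from the same start as the Psap site.
Near Gusb, no gene named: cgcaCACGTGaccc
Near Psap, no gene named: tggtCAGCTGacga
A match of letters is a description and does not show that a factor binds there.

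**Figure D1:**
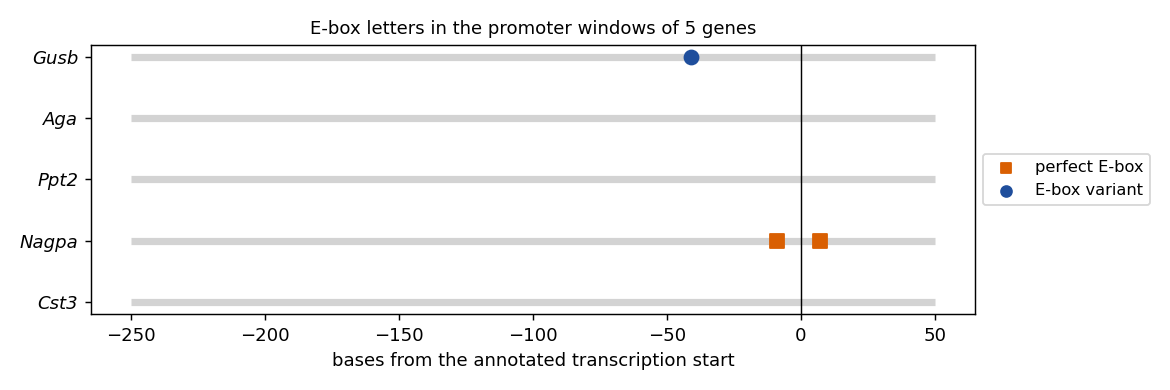
Place of E-box letters in the promoter windows of 5 genes. The x axis gives bases from the annotated start, grey bars the windows searched, orange squares CACGTG (Nagpa, at -9 and +7) and the blue circle the variant CATGTG (Gusb, at -41). Aga, Ppt2 and Cst3 have no mark.

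Libraries held 373964 to 1196647 reads on genes, and levels are given as CPM, read counts scaled to a common library size by TMM, in which 3 reads are worth 2.46 to 8.50 CPM. QuantSeq reads 1 tag near the 3′ end of a transcript, so these levels need no correction for length. Tags without molecular identifiers are not independent molecules, and such floors cover counting error only. Reads set aside for low alignment quality took 77.0 to 79.8% of each WT file and 71.2 to 74.6% of each FGFR3/4KO file, so that the genotypes did not overlap in this respect. By a measure on raw counts, libraries with FGF18 differed more among themselves than the others did. This measure also depends on depth, which was not corrected for. The FGF18 libraries held 840149 to 1196647 reads on genes, and the vehicle libraries 373964 to 947730. The chi-square per degree of freedom between replicates was 1.56 to 1.87 among vehicle libraries, 2.99 to 5.67 among WT FGF18 libraries, 4.62 and 4.65 between FGFR3/4KO FGF18 replicate 1 and the other two, and 2.0 between those. The 7 of 16 chondrocyte markers with a known identifier summed to 6535 to 6852 CPM in WT vehicle, 5924 to 6309 in WT FGF18, 8109 to 8169 in FGFR3/4KO vehicle and 8415 to 8742 in FGFR3/4KO FGF18 libraries. Of these markers, Sox9, Mia, Prelp, Col11a2 and Fmod were at 269 CPM or more in every library, while Chad and Epyc reached 19.7 and 9.52 CPM at most. They did not all differ in the direction of the sum: Prelp, Fmod and Col11a2 were higher in FGFR3/4KO than in WT, Mia and Chad lower. The 4 fibroblast markers with an identifier, Thy1, Col1a1, Pdgfra and Lum, summed to 17.1 to 43.1 CPM. None of the 8 macrophage and osteoclast markers had an identifier here. As in any bulk sample, fewer cells of a type and less RNA per cell cannot be told apart.

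In order of mean level, the genes stood as Psap, Aga, Gusb, Cst3, Nagpa and Ppt2 in each of the 4 groups. Together they took 2432 CPM in WT vehicle, 3603 in WT FGF18, 2648 in FGFR3/4KO vehicle and 3054 in FGFR3/4KO FGF18. Psap and Aga, first and second, overlapped in range in WT vehicle, where Psap ran from 822 to 906 CPM and Aga from 622 to 828 CPM. Gusb and Cst3 overlapped in WT FGF18 and in both FGFR3/4KO groups, Aga and Gusb in WT FGF18, and Nagpa and Ppt2 in WT vehicle. Nagpa and Ppt2 lay far below the rest, and their precision was set by few reads.

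**Figure D2:**
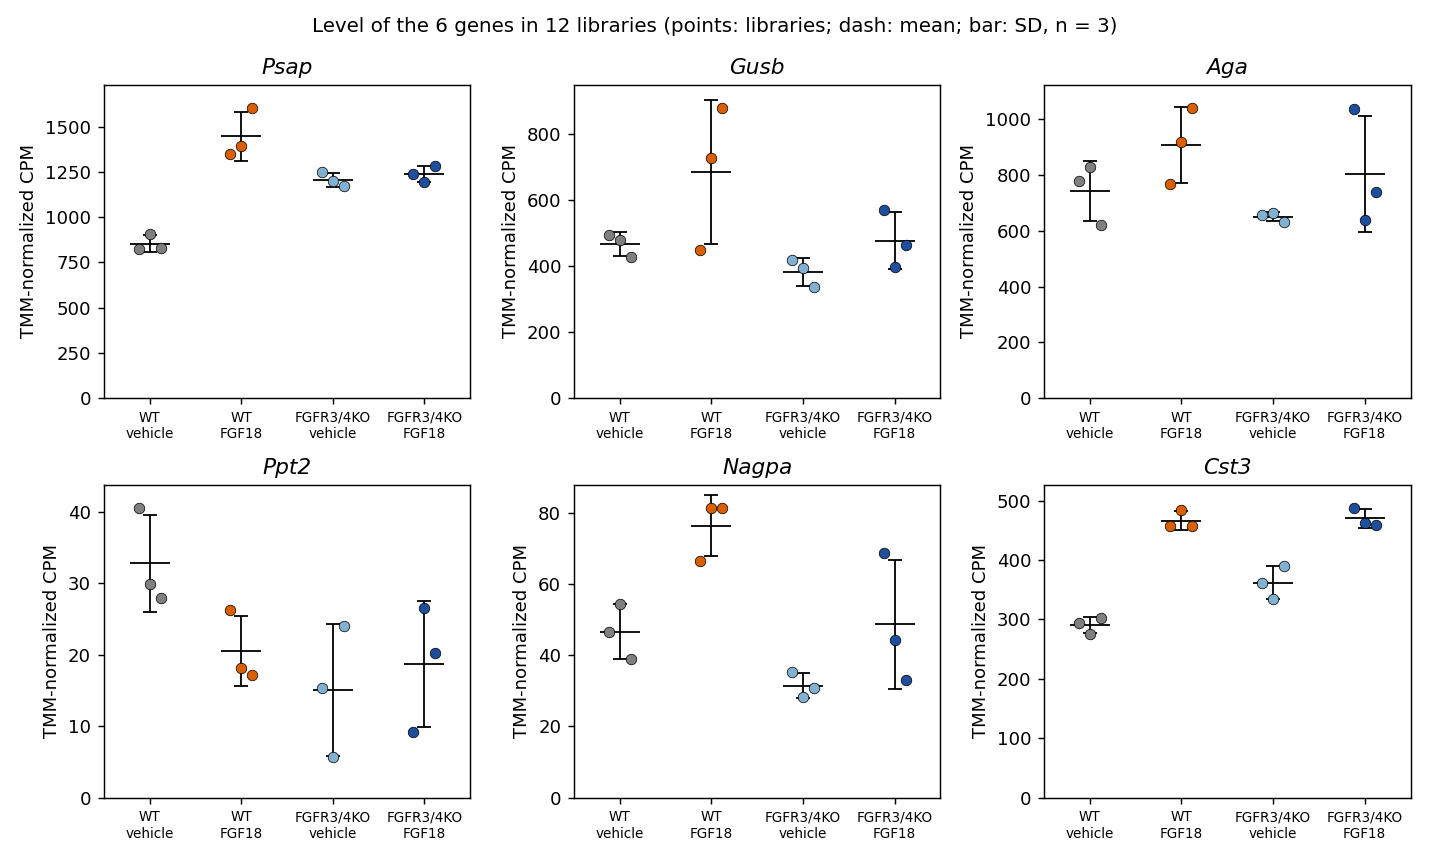
Level of each gene in all 12 libraries. The y axis is CPM after TMM scaling and starts at 0, points are libraries in order of replicate number, dashes are means and bars SD (n = 3). Psap in WT vehicle libraries (822 to 906 CPM) lies below the other 3 groups, and the SD among FGF18 libraries, in CPM, is largest for Gusb and Aga. Relative to the mean, the SD in FGFR3/4KO FGF18 is larger for Ppt2 (47.0%) and Nagpa (37.2%) than for Aga (25.8%) and Gusb (18.1%).

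Gusb stood at 494, 479 and 426 CPM in WT vehicle replicates 1, 2 and 3, and at 449, 726 and 877 CPM in WT FGF18. In FGFR3/4KO it stood at 418, 394 and 335 CPM with vehicle and at 568, 397 and 462 CPM with FGF18. WT FGF18 replicate 1 lay within the WT vehicle range while the other two lay far above it, and the coefficient of variation in that group was 31.7%, where counting alone gives 3.85%. The WT means were 466 ± 35.9 and 684 ± 217 CPM (SD, n = 3), without and with FGF18, and the means stood at 382 ± 42.6 and 476 ± 86.4 CPM in FGFR3/4KO. The log2 fold change with FGF18 was 0.55 (SE 0.17) in WT and 0.32 (SE 0.18) in FGFR3/4KO. Without WT FGF18 replicate 1 the WT value was 0.78, and without replicate 3 it was 0.32.

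Aga stood at 778, 828 and 622 CPM in WT vehicle and at 766, 918 and 1040 CPM in WT FGF18. In FGFR3/4KO it stood at 657, 663 and 631 CPM with vehicle and at 1036, 637 and 738 CPM with FGF18. The ranges with and without FGF18 overlapped in both genotypes. Means were 743 ± 108 and 908 ± 137 CPM in WT, and 650 ± 16.9 and 804 ± 207 CPM in FGFR3/4KO. The log2 fold change with FGF18 was 0.29 (SE 0.15) in WT and 0.30 (SE 0.16) in FGFR3/4KO, and the latter was 0.10 without FGFR3/4KO FGF18 replicate 1. The difference between genotypes in this effect was 0.01, with a 95% interval from -0.44 to 0.46, so that neither a smaller nor a larger effect in the knockout was shown.

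Ppt2 was the least abundant, with 2 to 32 reads per library. It stood at 40.6, 29.9 and 27.98 CPM in WT vehicle, and at 26.2, 18.2 and 17.2 CPM in WT FGF18. In FGFR3/4KO the values were 15.3, 5.67 and 24.1 CPM with vehicle, and 9.23, 26.6 and 20.3 CPM with FGF18. It was the only 1 of the 6 genes with a lower mean in WT FGF18 than in WT vehicle, 20.6 ± 4.94 against 32.8 ± 6.78 CPM, without overlap of the libraries. The value of FGFR3/4KO vehicle replicate 2 rests on 2 reads, under the 3-read floor of that library. The log2 fold change with FGF18 was -0.63 (SE 0.33) in WT and 0.18 (SE 0.39) in FGFR3/4KO. The sign in FGFR3/4KO turned when its vehicle replicate 2 was left out (-0.03), and also without its FGF18 replicate 2 (-0.14). Egfl8, the gene that follows Ppt2 and can share a readthrough transcript with it, had 0 to 3 reads per library.

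Nagpa, the enzyme that completes the mannose 6-phosphate tag, had 10 to 85 reads per library. Its level was 46.4, 54.4 and 38.97 CPM in WT vehicle, and 66.4, 81.31 and 81.32 CPM in WT FGF18. In FGFR3/4KO it was 35.2, 28.3 and 30.7 CPM with vehicle, and 68.6, 44.3 and 33.2 CPM with FGF18. All WT FGF18 libraries lay above the WT vehicle libraries, while FGFR3/4KO FGF18 replicate 3 lay within the FGFR3/4KO vehicle range. Means were 46.6 ± 7.71 and 76.3 ± 8.61 CPM in WT, and 31.4 ± 3.51 and 48.7 ± 18.1 CPM in FGFR3/4KO. The log2 fold change with FGF18 was 0.72 (SE 0.23) in WT and 0.58 (SE 0.27) in FGFR3/4KO, and the latter was 0.30 without FGFR3/4KO FGF18 replicate 1.

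Psap, the cofactor precursor, was the most abundant of the 6. It stood at 822, 906 and 830 CPM in WT vehicle, and at 1349, 1392 and 1602 CPM in WT FGF18. In FGFR3/4KO it stood at 1249, 1201 and 1172 CPM with vehicle, and at 1235, 1195 and 1281 CPM with FGF18. The FGFR3/4KO libraries, whether or not FGF18 was given, lay between the WT vehicle and the WT FGF18 libraries, without overlap with either. Means were 853 ± 46.1 and 1447 ± 135 CPM in WT, and 1207 ± 38.9 and 1237 ± 43.4 CPM in FGFR3/4KO. The log2 fold change with FGF18 was 0.76 (SE 0.11) in WT and 0.04 (SE 0.11) in FGFR3/4KO, and the difference of these effects was -0.73, with a 95% interval from -1.06 to -0.40.

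Cst3, the cathepsin inhibitor, varied least among replicates with FGF18, relative to its mean. It stood at 294, 276 and 303 CPM in WT vehicle, and at 457, 485 and 457 CPM in WT FGF18. In FGFR3/4KO it stood at 362, 334 and 390 CPM with vehicle, and at 488, 463 and 460 CPM with FGF18. Both genotypes reached the same range with FGF18 (457 to 485 and 460 to 488 CPM), and the vehicle libraries of FGFR3/4KO lay above those of WT. Means were 291 ± 13.7 and 466 ± 16.2 CPM in WT, and 362 ± 27.9 and 470 ± 15.4 CPM in FGFR3/4KO. Accordingly the log2 fold change with FGF18 was 0.68 (SE 0.12) in WT and 0.37 (SE 0.12) in FGFR3/4KO, and the difference of these effects was -0.31, with a 95% interval from -0.66 to 0.04.

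Across the 6 genes, FGF18 in WT gave 4 that passed an adjusted p (FDR) of 0.05 over all tested genes by edgeR's quasi-likelihood test, Psap, Gusb, Nagpa and Cst3, all higher. Of all tested genes 25.7% passed, 12.9% as higher and 12.8% as lower. Because that contrast entered the choice, nothing is read from this count. Without WT FGF18 replicate 2 or 3, or without WT vehicle replicate 3, neither Gusb nor Nagpa passed and 2 genes were left, while Nagpa alone was lost without WT vehicle replicate 1 and Gusb alone without WT vehicle replicate 2. The libraries of Psap, Nagpa and Cst3 did not overlap and were higher (20.2% of all tested genes), and those of Ppt2 did not overlap and were lower (19.5%). The median effect of all 6 genes on the log2 scale was 0.61, where that of all tested genes was 0.02. Psap, Gusb and Cst3 were picked as rising here, so nothing is read from that difference. In FGFR3/4KO 0 of the 6 genes and 0% of all tested genes passed, by edgeR as by DESeq2 for the 6 genes, while 478 genes and 2 of the 6 (Nagpa and Cst3) had an unadjusted p under 0.05. There the median was 0.31 for the 6 genes and 0.01 for all tested genes, from which nothing is read either. Cst3 alone among the 6 had higher libraries without overlap in FGFR3/4KO (6.38% of all tested genes were higher in this way and 6.29% lower). For the difference of the FGF18 effect between genotypes, 1 of the 6 passed (Psap, with the smaller effect in FGFR3/4KO), where 10.9% of all tested genes did (5.91% with the larger and 4.96% with the smaller effect in FGFR3/4KO). Both contrasts within a genotype share their libraries with the comparisons between genotypes.

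FGFR3/4KO was compared with WT under vehicle. All libraries of this comparison also entered the contrasts that chose Psap, Gusb and Cst3. A gene low in WT vehicle is favoured by that choice, so for the 6 genes this comparison is a description too. Psap was higher in FGFR3/4KO, 1207 ± 38.9 against 853 ± 46.1 CPM (log2 fold change 0.50, SE 0.11, FDR 0.00331 by edgeR's quasi-likelihood test). It was the only 1 of the 6 genes to pass, where 14.1% of all tested genes did (8.00% as higher and 6.07% as lower). Cst3 was higher without overlap of the libraries, at a log2 fold change of 0.32 (SE 0.13, FDR 0.0861). Gusb, Ppt2 and Nagpa had lower libraries without overlap, at log2 fold changes of -0.29 (FDR 0.313), -0.91 (FDR 0.108) and -0.54 (FDR 0.206). The ranges of Aga overlapped, at -0.19 (FDR 0.466). Of all tested genes 17.1% were higher and 17.1% lower without overlap. In a model of only these 2 groups, Gusb, Ppt2 and Cst3 passed as well, with FDR of 0.0411, 0.0454 and 0.0345. That model passed 1465 of 6250 tested genes, where the main model passed 1038 of 7378. The share of reads set aside for low alignment quality and the sum of the chondrocyte markers, given above, also differed between these genotypes without overlap, and their part in the result was not tested. Single markers went both ways on the log2 scale. Prelp (0.49), Fmod (1.01) and Col11a2 (0.40) passed as higher in FGFR3/4KO, and Mia (-0.35) and Chad (-2.23) as lower. Sox9 (0.31) did not pass, and Chad had 1 to 2 reads per FGFR3/4KO vehicle library.

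With FGF18 in both genotypes, the enzyme Gusb was lower in FGFR3/4KO, 476 ± 86.4 against 684 ± 217 CPM (log2 fold change -0.52, SE 0.17). Gusb, Psap and Cst3 were selected on these WT FGF18 libraries, so that for them this comparison partly restates the choice. Nagpa, Aga and Ppt2, outside the study's list, were also chosen with results of these libraries known. The comparison is therefore a description for all 6 genes. Nagpa was lower as well, 48.7 ± 18.1 against 76.3 ± 8.61 CPM (log2 fold change -0.68, SE 0.22, FDR 0.0185 by edgeR's quasi-likelihood test). Gusb and Nagpa were the 2 of the 6 genes past the threshold, where 33.9% of all tested genes passed (17.0% as lower), so the share is near that of all genes. The libraries of both genes overlapped between genotypes. Neither passed when only these 2 groups were modelled (FDR 0.0500287 for Nagpa), or when WT FGF18 replicate 2 or 3 or FGFR3/4KO FGF18 replicate 2 or 3 was left out. With DESeq2 Nagpa did not pass (adjusted p 0.0504). Psap was lower without overlap at -0.23, and none of the 6 was higher without overlap, where 21.5% and 20.5% of all tested genes were. The log2 fold changes of Aga (-0.18, FDR 0.390), Ppt2 (-0.10, FDR 0.852) and Cst3 (0.01, with a 95% interval from -0.23 to 0.25) did not pass. Aga passed when FGFR3/4KO FGF18 replicate 1 was left out (-0.37, FDR 0.0405). The same technical shares differed between these genotypes, and their part was not tested.

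**Figure D3:**
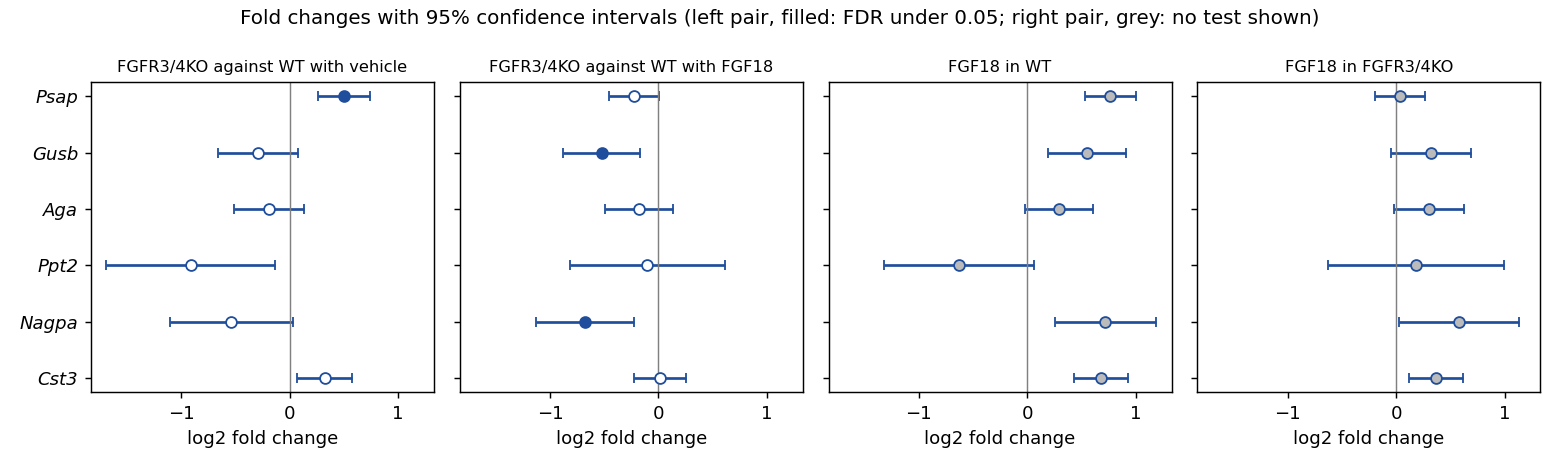
Log2 fold changes of the 6 genes with 95% confidence intervals in 4 comparisons. In the left pair, filled points passed an FDR of 0.05 (Psap at 0.50 with vehicle, Gusb at -0.52 and Nagpa at -0.68 with FGF18) and open points did not. Both comparisons in the left pair use libraries that entered the choice and are descriptions. So are the grey points in the right pair, the effect of FGF18 in each genotype.

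The libraries that stood apart within the FGF18 groups did so in the same way for most of these genes. WT FGF18 replicate 1 had the lowest level of its group for Psap, Gusb, Aga and Nagpa and the highest for Ppt2. For Cst3 it was level with replicate 3 (456.6 and 457.1 CPM). FGFR3/4KO FGF18 replicate 1 had the highest level of its group for Gusb, Aga, Nagpa and Cst3 and the lowest for Ppt2, while Psap lay in the middle. Summed over the 6 genes, WT FGF18 libraries held 3113, 3621 and 4075 CPM, and FGFR3/4KO FGF18 libraries 3405, 2762 and 2995 CPM. The highest knockout library therefore lay above the lowest WT library. Without FGFR3/4KO FGF18 replicate 1, the FGF18 effect in FGFR3/4KO was 0.19 for Gusb, 0.10 for Aga, 0.30 for Nagpa, 0.05 for Psap and 0.35 for Cst3. Leaving out the first replicate with FGF18 moved the FGF18 effect in its own genotype least for Psap and Cst3.

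Other genes of the same pathway could be followed only where an identifier was paired with a name, which held for few of them. Of 63 soluble hydrolases listed, 10 had an identifier, and 3 besides Gusb, Aga and Ppt2 were tested. Scpep1, a serine carboxypeptidase (0.68, SE 0.13), and Plbd2, a phospholipase B-like protein (0.58, SE 0.16), rose with FGF18 in WT, and Cpq, a carboxypeptidase, had 0.49 (SE 0.27) without passing, where 12.9% of all tested genes passed as higher. In FGFR3/4KO the log2 fold changes of these genes were -0.05, 0.10 and 0.27, and none passed. The difference of the effects between genotypes passed for Scpep1 (-0.73, SE 0.19), as for 4.96% of all tested genes in this direction. It did not pass for Plbd2 or Cpq. Compared with WT, Cpq was lower in FGFR3/4KO with vehicle (-1.61, SE 0.37), and 3 of 3 were lower with FGF18, from -0.55 to -1.83, where 6.07% and 17.0% of all tested genes passed as lower. Cpq rests on few reads, 3 to 10 per library in FGFR3/4KO vehicle and 5 to 16 in FGFR3/4KO FGF18. The median FGF18 effect over these 3 genes in WT was 0.58, where it was 0.02 for all tested genes.

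Of 12 cofactors and protease inhibitors listed, 2 besides Psap and Cst3 were tested. Cstb (cystatin B), an inhibitor of cathepsins inside the cell, rose with FGF18 in WT by 1.56 (SE 0.28) and had -0.06 (SE 0.36) in FGFR3/4KO. The difference of these effects was -1.62 (SE 0.46) and passed the threshold, as did 4.96% of all tested genes in this direction. Creg1, a lysosomal glycoprotein, had 0.43 (SE 0.40) and 0.51 (SE 0.59) without passing. With FGF18 both were lower in FGFR3/4KO than in WT, at -1.68 and -1.25, where 17.0% of all tested genes passed as lower. With vehicle the same comparison gave -0.06 (SE 0.36) for Cstb and -1.33 (SE 0.55) for Creg1, whose libraries were lower without overlap, and neither passed. Both rest on few reads per library, in FGFR3/4KO vehicle 3 to 15 for Cstb and 0 to 6 for Creg1.

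Of 14 genes for tagging, activation and delivery of the enzymes, 5 besides Nagpa were tested. Ap1s1, a subunit of the clathrin adaptor AP-1, rose with FGF18 in WT by 0.69 (SE 0.17), where 12.9% of all tested genes passed as higher. Gnptab, the subunit of the phosphotransferase that acts in the step before Nagpa, had -0.47 (SE 0.51) in WT and -0.83 (SE 0.53) in FGFR3/4KO and did not pass. Neither did Sumf1 and Sumf2, of which Sumf1 activates sulfatases, or Scarb2, the receptor that carries β-glucocerebrosidase to the lysosome. Sumf2 was lower in FGFR3/4KO with FGF18 (-0.67, SE 0.16), where 17.0% of all tested genes passed as lower. Of 17 subunits and accessory proteins of the proton pump, 4 were tested. Atp6ap2, an accessory protein, rose with FGF18 in WT (0.46, SE 0.16), and the catalytic subunit Atp6v1a was lower in FGFR3/4KO with FGF18 (-0.70, SE 0.17). The shares of all tested genes, 12.9% as higher and 17.0% as lower, apply here too. No pump gene passed between genotypes with vehicle, where 14.1% of all tested genes did. In FGFR3/4KO, no gene of these lists passed for FGF18, where 0% of all tested genes did.

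**Figure D4:**
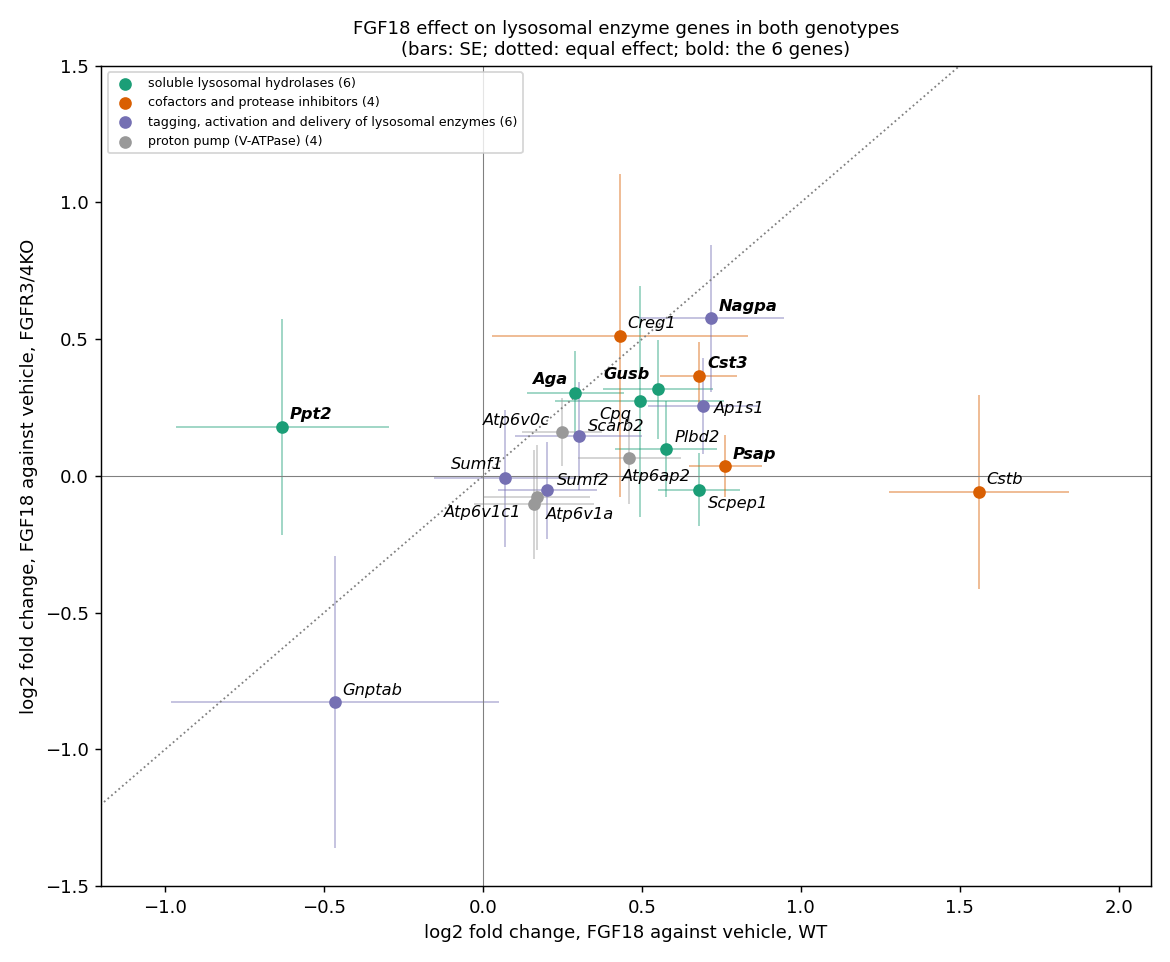
Effect of FGF18 in WT (x axis) against that in FGFR3/4KO (y axis), both as log2 fold change, for 20 genes of the lysosomal lists, with bars of 1 SE. The 6 genes are in bold. Psap (0.76 and 0.04), Scpep1 (0.68 and -0.05) and Cstb (1.56 and -0.06) lie far below the dotted line of equal effects. Aga and Nagpa lie near it, and Ppt2 lies to the left of 0.

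For each gene, the 2 most similar named genes were found by the root mean square difference of log2 CPM over the 12 libraries after each gene's mean was removed, among 1394 genes. Nearest to Psap were Rbms2 (0.14) and Mtch1 (0.14), where the median gene lay at 0.48. Nearest to Nagpa were Mcoln1 (0.20), the calcium channel of the lysosomal membrane known as mucolipin, and Aldh2 (0.24), against a median of 0.62. Nearest to Cst3 were Arhgef25 and Vamp4 (both 0.16, median 0.48). Gusb and Aga shared a neighbour, Rtfdc1, at 0.16 and 0.14, beside Commd8 (0.16) for Gusb and Bri3 (0.13) for Aga. Ppt2 had no close neighbour, its nearest being Slc25a11 (0.31) and Mpzl1 (0.33), with a median of 0.73. These distances describe likeness in the same 12 libraries and share their depth and their outlying libraries.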

How the data were processed

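QuantSeq 3′ mRNA sequencing (75-bp single-end reads, from 100 ng of total RNA) had been run on RCS of both genotypes with and without FGF18. The authors deposited raw counts per gene for each library, which they made by trimming with Trim Galore, alignment to rn6 with STAR and counting on genes. Tool versions are not given in the sources used here.

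These counts were tested in R 4.3.3 with edgeR 4.0.16. The filterByExpr function (minimum count 10, minimum total 15) selected 7378 genes, TMM set the library sizes, and a single fit of the 12 libraries gave each group its own mean. P-values of the quasi-likelihood test were adjusted over all tested genes by Benjamini-Hochberg, with a threshold of 0.05. A standard error was obtained from the log2 fold change and the root of its F statistic. The test was checked on simulated counts.

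The members and the lists were chosen with earlier results of these data known. The genes named are the 6, the 2 nearest genes of each, and tested genes of the lists. Names came from 1998 pairs of identifier and symbol in a supplementary table, so that 1418 tested genes have one. The deleted receptors' own genes carry no name there and were not analysed here. Promoters were matched to RefSeq (GRCr8) by symbol.

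Alternatives were the likelihood-ratio test, DESeq2 1.42.0, upper-quartile scaling, no filter, at least 1 CPM in 3 libraries, a fit of the compared groups alone, the replicate number as a block, and leaving out 1 library at a time. Libraries with the same replicate number did not deviate together (mean r -0.03 over 18 pairs, 0 pairs over 0.1).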

Additional observations from a re-analysis of the deposited data

Results flagged for a closer look

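The effect of FGF18 on Psap differed between the genotypes. The log2 fold change in FGFR3/4KO minus that in WT was -0.73 (SE 0.16) by the interaction term of the same edgeR model, and it kept its side of the threshold with each of the 12 libraries left out in turn (-0.77 to -0.62). Psap stands in the list that the study drew from these libraries, so that this value is a description and no independent evidence.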

How the results depend on the processing

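The number of the 6 genes past the threshold was 1 for FGFR3/4KO against WT with vehicle and became 4 when only the groups compared were modelled. It was 2 for FGFR3/4KO against WT with FGF18 and became 0 in that model and 1 with DESeq2. Over all tested genes, 1038 of 7378 passed with vehicle, and 1465 of 6250 with only those groups modelled. With FGF18, 2500 of 7378 passed, against 2132 of 7246 with only those groups modelled and 2031 of 7378 with DESeq2. The cause of these changes was not tested. With each library left out, the numbers ran from 1 to 1 with vehicle, from 0 to 3 with FGF18, from 2 to 4 for FGF18 in WT, from 0 to 0 for FGF18 in FGFR3/4KO and from 1 to 1 for the difference of the effects. In the same order, 679 to 1211, 2060 to 2519, 1322 to 2117, 0 to 1 and 561 to 880 of all tested genes passed. Gusb and Nagpa passed in 8 of 12 such fits, for FGF18 in WT as for the genotypes with FGF18, and Psap with vehicle in 12 of 12. The sign turned for Cst3 with FGF18 between genotypes under upper-quartile scaling (-0.034) and for the difference of the effect on Aga under that scaling (-0.0040). Leaving out libraries gave ranges that crossed 0 for the difference of the effect on Aga (-0.17 to 0.16), Gusb (-0.46 to 0.018) and Nagpa (-0.40 to 0.12), for Ppt2 between genotypes with FGF18 (-0.42 to 0.20) and with FGF18 in FGFR3/4KO (-0.14 to 0.74), and for Cst3 between genotypes with FGF18 (-0.0024 to 0.071).

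The replicate block kept the numbers at 1, 2, 4, 0 and 1 in the order above and turned only the sign of the difference of the effect on Aga (-0.0022). The replicate numbers share a number only. Under the alternatives that leave out no single library, 195 fold changes had the same direction and side of the threshold, 3 turned sign and 6 crossed the threshold. Depth limits Ppt2 and Nagpa most.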
